A study of Homo sapiens with 9 samples.

Results

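The splicing factor genes described here are the protein-coding genes whose names begin with SRSF and a digit, HNRNP, SNRP, SF3A or SF3B. Of the 27615 genes in the deposited lists, 55 met this rule, namely 12 SRSF, 23 HNRNP, 11 SNRP and 9 SF3 genes. Triple-negative breast cancer cells of the established line MDA-MB-231 had received DMSO (vehicle), rimonabant or TXX-1-10, and polyadenylated RNA was sequenced from 3 libraries per treatment. Rimonabant blocks the cannabinoid receptor CB1, and TXX-1-10 was derived from rimonabant. No group carries a transgene or deletion, and all 3 groups are the same line. The dose and duration for the sequenced cells are not given in the sources used here, so every comparison of the compounds is at doses that may differ. The labels do not say whether the 3 libraries of a treatment came from separate cultures, so the p-values measure the spread between these libraries, which may be technical.

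The deposited FPKM values were scaled by a total of 17078370 to 19277808 reads per library, worked out here from counts and FPKM. This total is not the sum of the counts, since listed counts came to 99.1% to 102% of it in vehicle, 96.3% and 96.7% in rimonabant replicates 2 and 3 and 91.2% to 95.05% under TXX-1-10. Each of the 9 lists used here ends partway through a line, and a gene missing from a list is not a gene at 0. Hence 49 of the 55 splicing factor genes were listed for all 9 libraries, and these are among the 4236 genes tested. Rimonabant replicate 1 had the shortest list, with 4237 genes, all of them also listed for the other libraries. Its list therefore set which genes could be tested, and shares of all genes tested are shares of these genes. A fit of 9369 genes without this library is given below. FPKM, the deposited unit of level, is the count scaled by the length of the gene model and by the library total. Of 7 markers of MDA-MB-231 cells, 6 (VIM, AXL, MSN, CD44, CAV1 and LGALS1) were listed for all 9 libraries at 20.8 FPKM or more, and S100A4 was at 1.52 to 7.43 in 7 libraries. Of 5 genes known as low or absent in the line, CDH1 was listed at 0 and ESR1 and PGR did not pass 0.0459 FPKM, whereas EPCAM was at 4.47 to 5.37 and ERBB2 at 6.996 to 9.52. Rimonabant replicate 1 and TXX-1-10 replicate 3 stood apart from the other libraries of their groups. In both, counts relative to the other replicates fell as gene length rose (Spearman rho across genes of -0.694 and -0.692, given as a description).

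Splicing removes introns from precursor mRNA. The Sm proteins encoded by SNRP genes form a ring around the small nuclear RNAs U1, U2, U4 and U5, and the SF3A and SF3B complexes belong to the U2 particle, which recognises the branch point of the intron. SR proteins (SRSF genes) bind exonic enhancers and mostly favour inclusion of the exon, whereas hnRNP proteins (HNRNP genes) coat the transcript and often act against it. Many SR and hnRNP genes control their own level through exons whose inclusion exposes the mRNA to nonsense-mediated decay. In these families the balance between members, as much as the level of any single one, sets the choice of exons.

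Counts were compared with edgeR's quasi-likelihood test in 1 fit of the 9 libraries, with Benjamini-Hochberg adjustment over all 4236 genes. A gene counted as higher or lower where its adjusted p was under 0.05. In TXX-1-10-treated cells 39 of the 49 splicing factor genes fell against vehicle, 1 (HNRNPH2) rose and 9 passed in neither direction. Over all genes tested, 43.8% fell and 30.5% rose in the same comparison. The median log2 fold change was -0.61 over the 49 genes and -0.09 over all genes tested. In rimonabant-treated cells 20 splicing factor genes fell, against 25.2% of all genes tested, and 3 rose, against 23.7%. The median was -0.14 over the splicing factor genes and -0.02 over all genes. Without both libraries that stood apart, an alternative chosen after the data were seen, 33 splicing factor genes fell under rimonabant, against 37.96% of all genes tested, and 40 under TXX-1-10, against 50.4%. Without rimonabant replicate 1 alone the rimonabant count was 25, against 26.96%.

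By family, those that fell under TXX-1-10 were 7 of 10 SRSF genes, 17 of 19 HNRNP genes, 10 of 11 SNRP genes and 5 of 9 SF3 genes. Their medians were -0.85, -0.80, -0.56 and -0.26 on the log2 scale. Under rimonabant, 6 SRSF, 12 HNRNP, 1 SNRP and 1 SF3 gene fell, with medians of -0.16, -0.25, -0.11 and 0.01. Scaling by TMM or DESeq2 size factors in place of the library totals raised the median of all genes under TXX-1-10 from -0.09 to 0.00 and 0.01 and changed the calls over all genes from 1294 higher and 1857 lower to 1568 and 1570 or 1570 and 1561, and 37 or 38 splicing factor genes were lower. With the summed counts of the genes in all 9 lists as library size, a further alternative chosen after the data were seen, the median of all genes was 0.08 under TXX-1-10 and 0.05 under rimonabant. There 36 splicing factor genes fell and 6 rose under TXX-1-10, against 31.7% and 42.1% of all genes, and 17 fell and 4 rose under rimonabant, against 18.2% and 33.2%. Differences of bulk RNA do not tell fewer cells of a type from less RNA per cell.

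**Figure D1:**
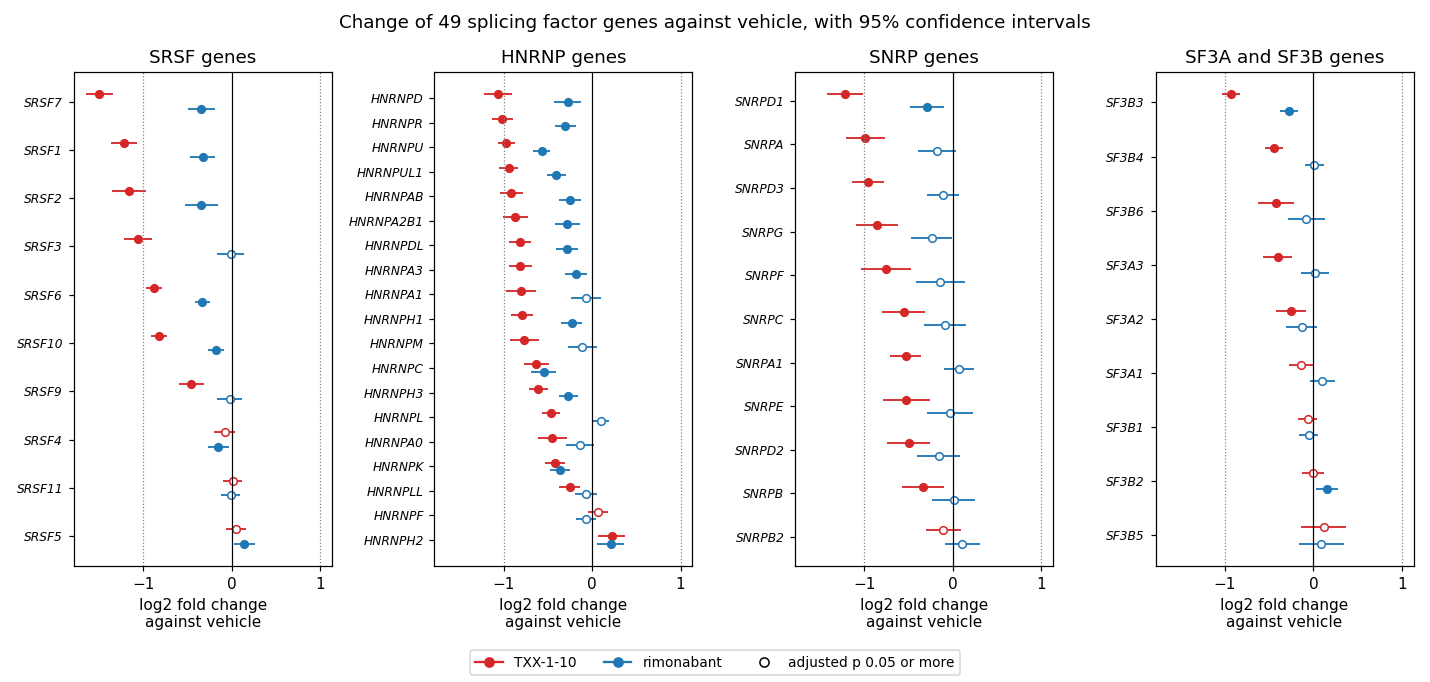
Log2 fold change against vehicle (horizontal axis) of the 49 splicing factor genes listed for all 9 libraries, by family, with 95% confidence intervals from the fit (3 libraries per treatment). Red points are TXX-1-10 and blue points rimonabant, open points have an adjusted p of 0.05 or more, and dotted lines mark a 2-fold change. All points past the left dotted line are TXX-1-10 points, and HNRNPH2 lies to the right of 0 for both compounds.

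A call with a change of at least 2-fold was met by 7 of the 49 genes under TXX-1-10, all of them lower: SRSF7, SNRPD1, SRSF1, SRSF2, HNRNPD, SRSF3 and HNRNPR. Over all genes tested 11.8% passed in either direction, with 322 of the 4236 lower and 178 higher. Under TMM or DESeq2 scaling 4 of them (SRSF7, SNRPD1, SRSF1 and SRSF2) remained past 2-fold, and with the summed counts 3 did (SRSF7, SNRPD1 and SRSF1). Under rimonabant 0 of the 49 passed this threshold with edgeR and 0 with DESeq2, against 1.13% of all genes tested with edgeR. At an unadjusted p under 0.05, 21 of the 49 genes were lower and 3 higher, against 28.6% and 27.0% of all genes.

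Among the SR proteins, SRSF1, SRSF2, SRSF3, SRSF6, SRSF7, SRSF9 and SRSF10 fell under TXX-1-10, while SRSF4, SRSF5 and SRSF11 did not pass. SRSF7, a shuttling SR protein that carries a zinc knuckle and takes part in mRNA export, had the largest change of all 49. Its FPKM was 50.1, 49.1 and 47.7 in vehicle-treated cells, 41.9, 37.2 and 36.7 with rimonabant and 16.4, 16.7 and 18.98 with TXX-1-10. The 3 groups did not overlap, and every TXX-1-10 library was under the lowest rimonabant library. SRSF7 was 64.5% lower under TXX-1-10 (-1.50 on the log2 scale with a standard error of 0.0709, edgeR adjusted p = 2.79e-08) and 21.2% lower under rimonabant (-0.34 on the log2 scale, edgeR adjusted p = 0.00237).

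SRSF1, which binds purine-rich exonic enhancers and is a known oncogene in breast epithelium, had FPKM values of 31.03, 28.3 and 27.8 in vehicle-treated cells, 24.5, 22.5 and 22.4 with rimonabant and 12.6, 11.8 and 13.01 with TXX-1-10. SRSF2, which recognises exonic enhancers through its single RNA recognition motif, was at 48.9, 47.3 and 44.5 in vehicle-treated cells, 40.3, 34.2 and 36.5 with rimonabant and 19.8, 19.7 and 23.5 with TXX-1-10. In both genes the 3 groups were separate, with rimonabant between the others. Under TXX-1-10 SRSF1 fell by 57.02% and SRSF2 by 55.3% (log2 fold changes of -1.22 and -1.16, edgeR adjusted p = 7.51e-08 and 6.37e-07). Rimonabant lowered them by 20.3% and 21.1% (edgeR adjusted p = 0.0021 and 0.00652). In GENCODE 29, SRSF2 shares exon bases with MFSD11 on the opposite strand, as 17 of the 49 genes do with another protein-coding gene. The counting is not stated to use strand, so reads of such genes may be assigned in part to the neighbour or left out.

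SRSF3, the smallest SR protein, showed another pattern. Its FPKM was 56.6, 54.1 and 53.4 in vehicle-treated cells, 57.4, 51.5 and 53.9 with rimonabant and 24.5, 25.1 and 29.01 with TXX-1-10. The vehicle and rimonabant libraries overlapped, and the TXX-1-10 libraries were all below both. SRSF3 fell by 52.1% under TXX-1-10 (-1.06 on the log2 scale with a standard error of 0.0709, edgeR adjusted p = 3.49e-07), and its change under rimonabant was -0.01 (95% confidence interval -0.17 to 0.14, edgeR adjusted p = 0.898). SRSF9, a short SR protein with a reduced RS domain, had the same order of groups at a smaller size, with -0.46 under TXX-1-10 and -0.02 under rimonabant.

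SRSF6, a longer SR protein of the same kind, was at 57.1, 57.9 and 56.6 in vehicle-treated cells, 46.2, 44.5 and 45.5 with rimonabant and 30.9, 30.9 and 31.6 with TXX-1-10. Replicates differed little, and TXX-1-10 lowered it by 45.6% and rimonabant by 20.7% (edgeR adjusted p = 1.79e-08 and 9.19e-05). SRSF10, which represses splicing when dephosphorylated during heat shock, went from 24.2 ± 0.279 FPKM in vehicle to 21.4 ± 0.625 and 13.7 ± 0.0682. Its log2 fold changes were -0.18 under rimonabant and -0.83 under TXX-1-10.

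The other 3 SRSF genes did not pass under TXX-1-10. SRSF4, the lowest of the family in vehicle, was at 9.74, 9.60 and 10 in vehicle-treated cells, 9.20, 8.33 and 8.88 with rimonabant and 9.23, 8.97 and 9.57 with TXX-1-10. Its difference of -0.08 under TXX-1-10 did not pass (95% confidence interval -0.20 to 0.04), and that of -0.15 under rimonabant passed with an edgeR adjusted p of 0.0353 but lost the call without any 1 of the vehicle libraries, rimonabant replicates 2 or 3, or TXX-1-10 replicate 1 (adjusted p of 0.0561 to 0.12), after a correction for gene length and with the summed counts (-0.11 and -0.08, edgeR adjusted p = 0.168 and 0.164). SRSF11, which associates with U2AF and the U1 particle, differed by 0.01 on the log2 scale under TXX-1-10 (95% confidence interval -0.10 to 0.12) and -0.01 under rimonabant (-0.12 to 0.10), and was called higher under TXX-1-10 with DESeq2 (0.11, adjusted p = 0.0441) and with the summed counts (0.18, edgeR adjusted p = 0.0126). SRSF5 was at 52.7, 51.8 and 49.02 in vehicle-treated cells, 57.9, 56.4 and 55.4 with rimonabant and 52.2, 50.8 and 55.9 with TXX-1-10. It rose by 10.5% under rimonabant (edgeR adjusted p = 0.0407), a call lost with 7 of the 9 libraries when each was left out in turn (adjusted p of 0.0534 to 0.141), and its difference under TXX-1-10 was 0.05 (edgeR adjusted p = 0.402). Under TMM or DESeq2 scaling SRSF5 was called higher under TXX-1-10 as well, by 0.15 on the log2 scale, and by 0.11 after the length correction and 0.22 with the summed counts.

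**Figure D2:**
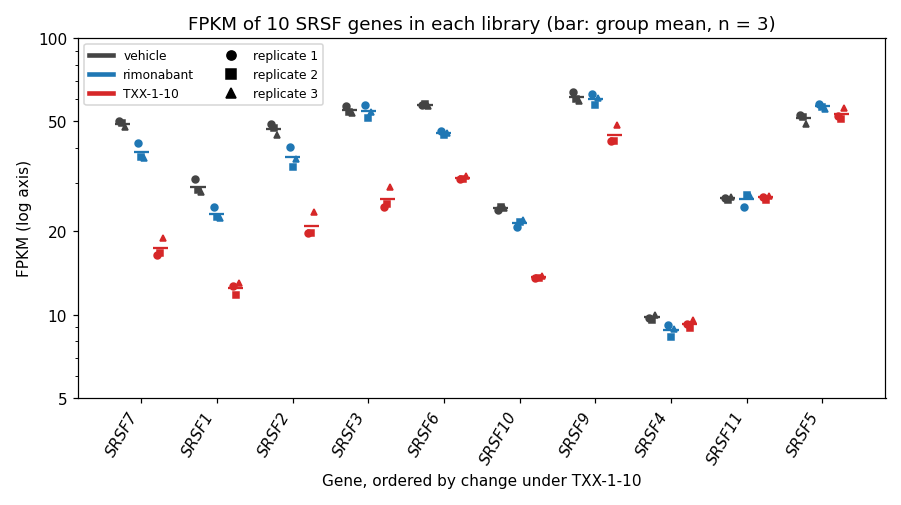
FPKM (log axis) of the 10 SRSF genes listed for all 9 libraries, with 1 point per library, marker shape for the replicate and a bar for the group mean (n = 3). In SRSF7, SRSF1, SRSF2, SRSF6 and SRSF10 the rimonabant points lie between vehicle and TXX-1-10, in SRSF3 and SRSF9 they lie among the vehicle points, and the 3 groups lie close together in SRSF4, SRSF11 and SRSF5.

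Among the hnRNP genes, HNRNPD and HNRNPR fell past 2-fold under TXX-1-10, and HNRNPU, HNRNPC and HNRNPUL1 had the largest falls under rimonabant. HNRNPD, also known as AUF1, binds AU-rich elements and controls mRNA decay. It was at 69.6, 69.7 and 67.4 in vehicle-treated cells, 62.1, 53.8 and 54.5 with rimonabant and 31.4, 31.8 and 35.7 with TXX-1-10, with each group separate from the others. The fall was 52.2% under TXX-1-10 (standard error 0.0704 on the log2 scale, edgeR adjusted p = 3.21e-07) and 17.6% under rimonabant. HNRNPR, a relative of SYNCRIP, was 50.7% and 19.1% lower, and HNRNPDL, a close relative of HNRNPD, fell by 43.1% and 17.7%.

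HNRNPU, the scaffold attachment factor that organises nuclear RNA and chromatin, was at 43.5, 43.01 and 42.8 in vehicle-treated cells, 28.5, 29.6 and 28.99 with rimonabant and 22.1, 21.9 and 21.8 with TXX-1-10. Replicates lay close together, and no group overlapped another. Its fall of 32.7% under rimonabant was the largest of the 49 genes in that comparison with all libraries (-0.57 on the log2 scale, edgeR adjusted p = 7.66e-06), and the fall under TXX-1-10 was 49.1% (-0.97, edgeR adjusted p = 1.82e-08). After the length correction its rimonabant value was -0.36, and HNRNPC, at -0.53, had the largest fall there, as it did without rimonabant replicate 1 (-0.60 against -0.56). HNRNPUL1, a relative that also binds an adenovirus protein, fell by 24.6% under rimonabant and 48.1% under TXX-1-10.

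The A/B group, which packages most nuclear transcripts and favours exon skipping, was the most abundant. HNRNPA1 had the highest FPKM of all 49 genes, at 362, 361 and 342 in vehicle-treated cells, 362, 321 and 332 with rimonabant and 195, 191 and 225 with TXX-1-10. The vehicle and rimonabant libraries overlapped, and every TXX-1-10 library was below them. HNRNPA1 fell by 42.7% under TXX-1-10 (-0.80 on the log2 scale, edgeR adjusted p = 4.88e-06), and its difference of -0.07 under rimonabant did not pass (95% confidence interval -0.24 to 0.10), although without both libraries that stood apart it was -0.12 with an edgeR adjusted p of 0.00474. HNRNPA2B1 was at 169, 167 and 160.3 in vehicle-treated cells, 140, 134 and 133 with rimonabant and 88.4, 84.9 and 97.9 with TXX-1-10, and HNRNPAB went from a mean of 192 ± 3.28 FPKM to 161 ± 8.81 and 102 ± 5.30. Both fell under rimonabant and, more, under TXX-1-10, HNRNPA2B1 by 17.8% and 45.3% and HNRNPAB by 15.9% and 46.96% in that order. Reads of these genes can be shared with processed pseudogenes. Pseudogene rows bearing the names of the 4 families held 0.374 to 0.432 counts per 100 counts of the genes themselves in the 4 longest lists. How reads matching both a gene and a pseudogene were counted is not given, so these values do not measure the reads shared or left out.

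HNRNPC and HNRNPK were lowered to a similar level by both compounds. HNRNPC, the tetramer that measures transcript length and guards against exonisation of Alu elements, was at 83.2, 81.4 and 78.5 in vehicle-treated cells, 58.95, 53.3 and 53.7 with rimonabant and 50.9, 49.4 and 56.6 with TXX-1-10. Rimonabant and TXX-1-10 libraries overlapped each other and lay below all vehicle libraries. HNRNPC changed by -0.55 on the log2 scale with rimonabant (edgeR adjusted p = 0.000103) and by -0.63 with TXX-1-10 (edgeR adjusted p = 8.9e-06), and the direct difference was -0.08 (95% confidence interval -0.23 to 0.06). HNRNPK, a poly(C)-binding protein with KH domains, was at 163, 161 and 154 in vehicle-treated cells, 127, 124 and 120.4 with rimonabant and 119, 115 and 123 with TXX-1-10. It showed the same arrangement, with -0.36, -0.42 and a direct difference of -0.06 (95% confidence interval -0.17 to 0.05). Without both libraries that stood apart HNRNPC was called lower under TXX-1-10 than under rimonabant (-0.09, edgeR adjusted p = 0.0447), whereas under TMM and the summed counts the direct differences of both genes turned to between 0.01 and 0.04 without passing. These intervals bound the difference between the compounds and do not show that it is 0.

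The H/F group, whose members bind runs of G, was split. HNRNPH1 fell from 92 ± 3.04 FPKM to 78.3 ± 4.17 under rimonabant and 53.02 ± 0.182 under TXX-1-10, a fall of 14.9% and 42.4%, and HNRNPH3 fell by 17.2% and 34.5%. HNRNPH2, the X-linked paralogue of HNRNPH1, was at 26.8, 25.7 and 25.8 in vehicle-treated cells, 32.3, 28.1 and 30.1 with rimonabant and 30.1, 28.4 and 32.5 with TXX-1-10. All treated libraries were above all vehicle libraries. It rose by 16.3% under TXX-1-10 (edgeR adjusted p = 0.0143) and by 15.5% under rimonabant (edgeR adjusted p = 0.0282), where the call was lost without vehicle replicate 2 or 3 or rimonabant replicate 1 or 3 (adjusted p of 0.0689 to 0.0888). HNRNPF was at 124, 123 and 122 in vehicle-treated cells, 120.4, 116 and 114 with rimonabant and 127, 123 and 136 with TXX-1-10. Its difference of 0.07 against vehicle under TXX-1-10 did not pass (edgeR adjusted p = 0.251), but it was called higher with TMM (0.16, edgeR adjusted p = 0.00529), the length correction (0.18, edgeR adjusted p = 0.0013) and the summed counts (0.24, edgeR adjusted p = 0.000238). It was the 1 splicing factor gene higher under TXX-1-10 than under rimonabant, by 10.1% (edgeR adjusted p = 0.0324), a call lost without vehicle replicate 2, rimonabant replicate 2 or 3, or TXX-1-10 replicate 1 or 3 (adjusted p of 0.0566 to 0.109). HNRNPH1 and HNRNPH2 are paralogues, and the identity of their sequences was not computed here. Where reads match both, a part of either count may belong to the other. HNRNPH2 also lies within the readthrough gene RPL36A-HNRNPH2.

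HNRNPL, which binds CA repeats, was at 31.2, 31.6 and 31.3 in vehicle-treated cells, 34.97, 31.97 and 33.6 with rimonabant and 22.4, 22.7 and 23.04 with TXX-1-10, so that all rimonabant libraries lay above and all TXX-1-10 libraries below the vehicle range. The fall under TXX-1-10 was 27.7% (edgeR adjusted p = 5.02e-06), and the difference of 0.09 under rimonabant did not pass (edgeR adjusted p = 0.102), although it did under TMM scaling (0.11, edgeR adjusted p = 0.0441), without rimonabant replicate 2 (0.13, edgeR adjusted p = 0.0468) and with the summed counts (0.17, edgeR adjusted p = 0.00473). HNRNPLL, the paralogue known for CD45 exon choice in lymphocytes, had the lowest level of the family in vehicle (12.1 ± 0.476 FPKM) and fell by 16.3% under TXX-1-10, a call lost with the summed counts (-0.08 on the log2 scale, edgeR adjusted p = 0.161). HNRNPM fell by 41.4% and HNRNPA0 by 26.9% under TXX-1-10, and neither passed under rimonabant.

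**Figure D3:**
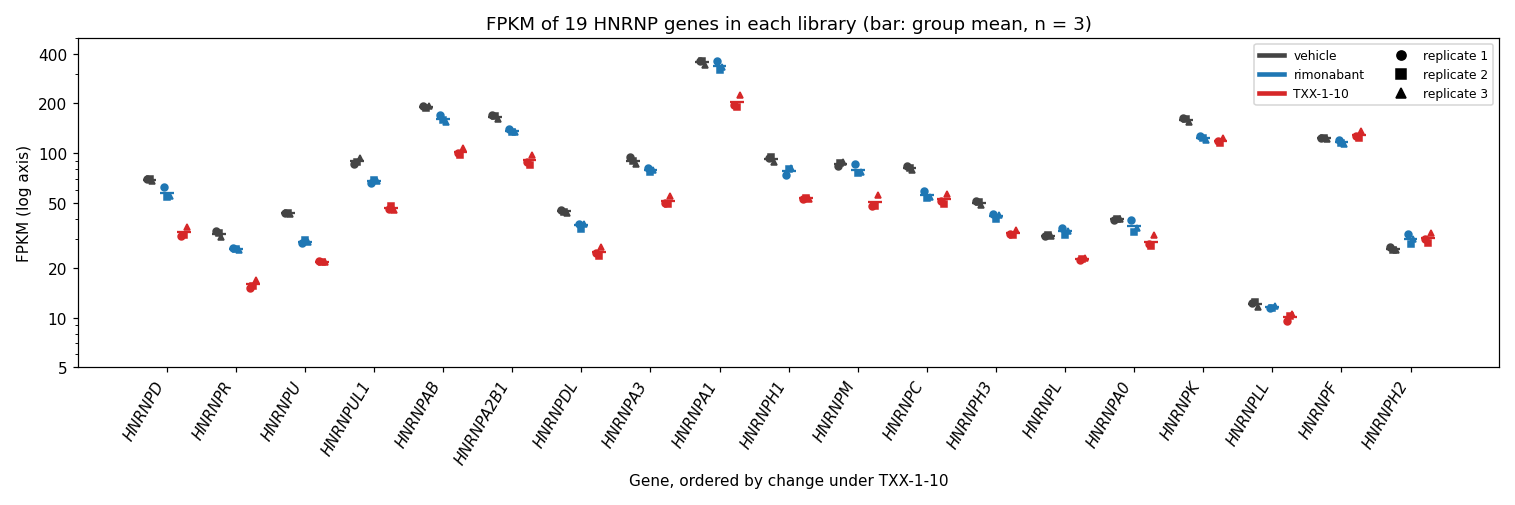
FPKM (log axis) of the 19 HNRNP genes listed for all 9 libraries, with 1 point per library, marker shape for the replicate and a bar for the group mean (n = 3). The TXX-1-10 points lie below the vehicle points in all genes but HNRNPF and HNRNPH2, and in HNRNPC and HNRNPK the rimonabant points lie beside the TXX-1-10 points.

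Promoters are shown for the 2 SRSF genes with the largest difference between the compounds and for the HNRNPH1 and HNRNPH2 pair, which moved in opposite directions. Each is the 250 bases before the transcription start in RefSeq (GRCh38.p14), printed 5′ to 3′ on the strand of the gene, with matches on either strand to 5 motifs in capitals. The motifs were the ETS core (GGAAGT), the box known from its letters as CCAAT, the GC box bound by Sp proteins (GGGCGG), the E-box bound by MYC and USF proteins (CACGTG) and the cAMP response element (TGACGTCA).
SRSF7 (chr2:38751495-38751744, minus strand): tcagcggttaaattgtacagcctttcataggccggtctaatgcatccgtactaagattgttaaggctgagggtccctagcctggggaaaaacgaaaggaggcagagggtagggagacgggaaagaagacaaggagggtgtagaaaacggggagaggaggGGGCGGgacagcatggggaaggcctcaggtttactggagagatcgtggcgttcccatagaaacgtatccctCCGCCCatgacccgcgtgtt
SRSF3 (chr6:36594112-36594361, plus strand): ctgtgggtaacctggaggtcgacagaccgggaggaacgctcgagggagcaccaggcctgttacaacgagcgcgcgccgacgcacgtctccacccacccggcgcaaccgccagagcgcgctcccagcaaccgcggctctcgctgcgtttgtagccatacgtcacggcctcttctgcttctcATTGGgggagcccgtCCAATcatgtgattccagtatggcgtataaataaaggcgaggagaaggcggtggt
HNRNPH1 (chr5:179634785-179635034, minus strand): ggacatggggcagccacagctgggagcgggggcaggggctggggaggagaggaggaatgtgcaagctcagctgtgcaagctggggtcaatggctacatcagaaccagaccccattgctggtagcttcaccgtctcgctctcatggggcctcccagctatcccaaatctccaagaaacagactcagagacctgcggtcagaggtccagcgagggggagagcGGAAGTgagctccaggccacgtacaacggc
HNRNPH2 (chrX:101407972-101408221, plus strand): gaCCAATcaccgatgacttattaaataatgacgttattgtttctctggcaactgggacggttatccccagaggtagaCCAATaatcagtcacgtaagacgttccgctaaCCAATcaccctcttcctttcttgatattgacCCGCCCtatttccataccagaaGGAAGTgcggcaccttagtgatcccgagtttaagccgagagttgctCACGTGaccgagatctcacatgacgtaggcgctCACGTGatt
SRSF7 held 2 GC boxes and SRSF3 2 CCAAT boxes on opposite strands. HNRNPH1 held a single ETS core, whereas HNRNPH2 held 3 CCAAT boxes, 2 E-boxes, a GC box and an ETS core. The window of HNRNPH2 was 47.6% G and C, against 61.6% for HNRNPH1.

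Promoters of 45 of the 49 genes were matched. GGAAGT was present in 21 of them (46.7%), against 25.0% of the 3487 promoters of tested genes and 19.5% of all 35116 promoters in the table. CCAAT was present in 18 (40%), against 35.8% and 32.0%, and CACGTG in 7 (15.6%), against 10.3% and 6.35%. GGGCGG was present in 27 (60%), against 72.2% and 42.6%, and TGACGTCA in 0, against 3.33% and 1.65%. Of the genes that fell under TXX-1-10, 15 of 35 held GGAAGT, as did 6 of the 10 others. For some genes the RefSeq start lies inside the gene model of the deposited lists, so the window holds bases of the gene itself. The window of SNRPE, on the plus strand, runs from 203861597 to 203861846, and its gene model starts at 203861603. Such windows are included in the counts above. A match describes the letters of the window and not binding of a factor. The promoters of HNRNPA1, SRSF2, SNRPD1 and SF3B3 are not analysed here.

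The SNRP genes fell under TXX-1-10 with few calls under rimonabant. All 7 genes of the Sm ring were lower under TXX-1-10, with a median log2 fold change of -0.76. SNRPD1, encoding the Sm protein D1, was at 24.7, 25.1 and 23.4 in vehicle-treated cells, 22.2, 18.7 and 18.9 with rimonabant and 10.1, 9.52 and 11.8 with TXX-1-10. Its groups were separate, and it fell by 57.2% under TXX-1-10 (-1.22 on the log2 scale with a standard error of 0.0910, edgeR adjusted p = 7.65e-07). The fall of 18.3% under rimonabant (edgeR adjusted p = 0.02) lost its call without vehicle replicate 1 or 2 or rimonabant replicate 2 or 3 (adjusted p of 0.0618 to 0.0786).

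SNRPD3, the partner of SmB in the ring, was at 43.5, 44.1 and 45.1 in vehicle-treated cells, 45.1, 38.5 and 39.3 with rimonabant and 21.6, 21.3 and 25.5 with TXX-1-10. Vehicle and rimonabant overlapped, and TXX-1-10 was below both by 48.6% against vehicle (edgeR adjusted p = 2.2e-06). SNRPB, encoding SmB, had the highest level of the family at 188, 179 and 194 in vehicle-treated cells, 211, 169 and 184 with rimonabant and 139, 131 and 174 with TXX-1-10, and the smallest fall of the ring. Its fall of 20.9% under TXX-1-10 (edgeR adjusted p = 0.0164) lost its call without vehicle replicate 3 or TXX-1-10 replicate 1 or 2 (adjusted p of 0.0562 to 0.062). The call was also lost with DESeq2 size factors (-0.24 on the log2 scale, edgeR adjusted p = 0.0507) and with the summed counts (-0.17, edgeR adjusted p = 0.126). The other ring members fell by 44.9% (SNRPG), 40.8% (SNRPF), 30.7% (SNRPE) and 29.2% (SNRPD2) under TXX-1-10. Within the ring, the ratio of the highest mean FPKM (SNRPB) to the lowest (SNRPD1) was 7.66 in vehicle, 9.44 under rimonabant and 14.1 under TXX-1-10. This ratio is of mRNA levels scaled by gene model length. Protein was not measured, so the ratio does not give the balance of the ring proteins.

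Of the 4 genes for proteins specific to a single particle, 3 fell under TXX-1-10. SNRPA, the U1 protein that binds a stem loop of U1 RNA, was at 35.96, 36.8 and 40.7 in vehicle-treated cells, 37.5, 29.2 and 33.5 with rimonabant and 18.1, 17.8 and 21.03 with TXX-1-10, and fell by 49.8% under TXX-1-10 (edgeR adjusted p = 7.41e-06). SNRPC, the U1 protein that stabilises pairing with the 5′ splice site, fell by 32.1%, and SNRPA1, a U2 protein with the lowest level of the family in vehicle (17.97 ± 0.238 FPKM), by 30.9%. SNRPB2, its partner in the U2 particle, was at 33.96, 32.1 and 30.3 in vehicle-treated cells, 37.4, 33.01 and 33.2 with rimonabant and 28.99, 26.7 and 33.7 with TXX-1-10. The 3 groups overlapped, and the difference of -0.11 did not pass with all libraries (95% confidence interval -0.31 to 0.09) but was -0.20 without TXX-1-10 replicate 3 (edgeR adjusted p = 0.0291).

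SNRP gene models are short, with a median length of 2361 bases against 5771 for all genes tested, so the length trend of rimonabant replicate 1 and TXX-1-10 replicate 3 bears on them. In rimonabant replicate 1 the 11 genes summed to 868 FPKM, against 689 and 720 in the other rimonabant libraries and 796 to 817 in vehicle. In TXX-1-10 replicate 3 they summed to 631 FPKM, against 514 and 499. The number called lower under rimonabant was 1 of 11 with all libraries, 5 without rimonabant replicate 1, 8 without both libraries that stood apart and 5 after a correction for the length trend. Under TXX-1-10 it was 10, 10, 11 and 10 in the same order. Over all genes tested, 25.2% were lower under rimonabant and 43.8% under TXX-1-10 with all libraries. Both shares also rose without both libraries that stood apart, as given above, so the SNRP counts did not rise alone. The shares after the length correction are not given here. The cause of the length trend was not tested.

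The SF3 genes changed least. SF3B3, the beta-propeller scaffold of the SF3B complex, was at 34.1, 34.3 and 33.8 in vehicle-treated cells, 29.2, 28.6 and 26.9 with rimonabant and 18.1, 17.9 and 17.6 with TXX-1-10. Its groups were separate, and it fell by 47.6% under TXX-1-10 (-0.93 on the log2 scale, edgeR adjusted p = 3.61e-08) and by 17.2% under rimonabant (-0.27, edgeR adjusted p = 0.000838), where the length correction left -0.17 without a call (edgeR adjusted p = 0.0525). SF3B1, the subunit that clamps the branch point helix and is mutated in leukaemias and some breast cancers, was at 31.9, 29.7 and 29.6 in vehicle-treated cells, 28.3, 30.2 and 29.3 with rimonabant and 29.5, 29.4 and 28.1 with TXX-1-10. The difference was -0.07 under TXX-1-10 (95% confidence interval -0.18 to 0.04) and -0.05 under rimonabant (-0.16 to 0.06), and neither passed.

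SF3B2, the binding partner of SF3B4, was at 29.4, 29.5 and 29 in vehicle-treated cells, 34.5, 30.6 and 32.4 with rimonabant and 28.8, 28.01 and 30.9 with TXX-1-10. The vehicle and TXX-1-10 libraries overlapped. Its rise of 11.01% under rimonabant (edgeR adjusted p = 0.0498) lost its call in 7 of the 9 fits that left out 1 library (adjusted p of 0.0537 to 0.141). SF3B4 fell by 26.6% under TXX-1-10, SF3B6, the subunit that touches the branch point adenosine, by 25.5%, and SF3A3 by 24.6%, with no call under rimonabant. SF3A2 fell by 16.2% (edgeR adjusted p = 0.0122), a call lost without vehicle replicate 3 (adjusted p = 0.0536), with TMM or DESeq2 size factors, DESeq2, the length correction or the summed counts (adjusted p of 0.0861 to 0.411), where its log2 value shrank from -0.26 to between -0.16 and -0.08. SF3A1 differed by -0.14 (95% confidence interval -0.28 to 0.00) without passing. SF3B5, the shortest gene model of the set, was at 84.5, 84.8 and 89.5 in vehicle-treated cells, 107, 82.99 and 85.4 with rimonabant and 84.96, 87.9 and 108 with TXX-1-10, with its highest values in the libraries that stood apart. Its difference of 0.12 under TXX-1-10 did not pass, and after the length correction it was 0.28 (edgeR adjusted p = 0.000257), and with the summed counts 0.29 (edgeR adjusted p = 0.0234). SF3B2 also rose under TXX-1-10 with the summed counts (0.17, edgeR adjusted p = 0.0053).

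The 49 genes together summed to 3421 ± 47.6 FPKM in vehicle, 3089 ± 197 under rimonabant and 2280 ± 165 under TXX-1-10 (SD, n = 3), that is 90.3% and 66.6% of vehicle. The HNRNP sum was 62.7% of vehicle under TXX-1-10 and 86.3% under rimonabant, the SRSF sum 62.3% and 90.7%, the SNRP sum 68.0% and 94.3%, and the SF3 sum 84.3% and 99.0%. For the SF3 sum the rimonabant and vehicle libraries overlapped. The highest genes weigh most in such sums, and HNRNPA1 alone held a larger FPKM than any other member in every library. Within the SRSF family the sum of every TXX-1-10 library (246 to 271 FPKM) was under that of every other library (360 to 420).

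Counting by separation of libraries in place of a test, FPKM of all TXX-1-10 libraries was below all vehicle libraries in 42 of the 49 genes and above in 1, where 46.3% and 32.4% of all genes tested were separate in these directions. Between rimonabant and vehicle, 22 genes were below and 4 above, against 31.5% and 29.7%.

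The compounds were compared directly in the same fit, as 1 pair. TXX-1-10 gave lower levels than rimonabant in 38 of the 49 genes and a higher level in 1, against 39.4% lower and 25.1% higher over all genes tested. Under TMM scaling these were 35 and 2, and the calls over all genes moved from 1065 higher and 1667 lower to 1381 and 1349. The median log2 difference was -0.49, and 2 genes differed at least 2-fold, SRSF7 (log2 difference -1.15, 95% confidence interval -1.31 to -0.99, edgeR adjusted p = 3.77e-07) and SRSF3 (-1.05, -1.21 to -0.89, edgeR adjusted p = 7.45e-07). Over all genes 5.93% differed at least 2-fold in either direction, with 184 lower and 67 higher under TXX-1-10. SNRPD1 (-0.93), SRSF1 (-0.89), SNRPD3 (-0.85), SRSF2 (-0.82), SNRPA (-0.81) and HNRNPD (-0.79) followed.

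Sorted by all 3 comparisons, 17 genes were lower under each compound than in vehicle and lower under TXX-1-10 than under rimonabant. These were 5 SRSF genes (SRSF1, SRSF2, SRSF6, SRSF7 and SRSF10), 10 HNRNP genes, SNRPD1 and SF3B3. Of these, HNRNPA3, SF3B3, SNRPD1 and SRSF10 did not keep the rimonabant call in all alternatives. The share of all genes tested that showed each pattern was not counted, so these counts describe the members only. A further 19 genes were lower under TXX-1-10 than in both other groups, with no call between rimonabant and vehicle. Among them were SRSF3, SRSF9, HNRNPA1, HNRNPL, HNRNPM, SF3B4 and 9 SNRP genes. For some of these SNRP genes the missing call depended on rimonabant replicate 1, without which more SNRP genes were called lower, as given above. HNRNPC and HNRNPK were lower under both compounds with no call between these, and SF3A2 fell under TXX-1-10 alone without a call in the direct comparison. SF3B1, SF3B5, SNRPB2 and SRSF11 had no call in any comparison. For SF3B1 the direct difference was -0.01 (95% confidence interval -0.12 to 0.10) and for SRSF11 0.02 (-0.09 to 0.13). The 2 comparisons with vehicle share the vehicle libraries, so their calls are not independent of each other.

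The other 6 members were missing from at least 1 list. SRSF8, a retrogene copy related to SRSF2, was listed for 8 libraries at 9.39, 9.69 and 8.53 FPKM in vehicle, 8.45 and 7.91 under rimonabant replicates 2 and 3, and 10.97, 10.2 and 11.9 under TXX-1-10. The TXX-1-10 libraries were the highest. In a fit of 9369 genes listed for 8 libraries, without rimonabant replicate 1, SRSF8 rose by 0.26 on the log2 scale under TXX-1-10 (edgeR adjusted p = 0.00786), and differed by 0.43 from rimonabant (edgeR adjusted p = 0.000895). HNRNPUL2, the second HNRNPU-like gene, went from 8.27 to 9.05 FPKM in vehicle to 6.03 to 6.34 under TXX-1-10 (-0.50 on the log2 scale, edgeR adjusted p = 1.43e-05), while it rose by 0.19 under rimonabant (edgeR adjusted p = 0.0409). HNRNPA1P48, named as a pseudogene of HNRNPA1 but listed as protein-coding, fell by 0.65 on the log2 scale under TXX-1-10, and its reads may in part be those of HNRNPA1. HNRNPA1L2, an intronless HNRNPA1 copy, was at 4.27 and 3.17 FPKM in 2 vehicle libraries, 3.84 and 4.17 in 2 rimonabant libraries and 5.33, 5.11 and 5.94 under TXX-1-10, and was not tested. SRSF12 reached 0.0119 FPKM in the 4 libraries that list it, and the readthrough gene HNRNPUL2-BSCL2 was listed at 0 in 2 libraries. With these genes 41 of 52 splicing factor genes fell and 2 rose under TXX-1-10, against 40.6% and 34.7% of the 9369 genes.

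Beyond these families, 109 genes from 10 lists of other splicing factors were tested, of 179 gene names written in those lists. Under TXX-1-10, 72 fell and 12 rose (66.1% and 11.01%, against 43.8% and 30.5% of all genes tested), with a median log2 fold change of -0.33. Under rimonabant 33 fell and 12 rose (30.3% and 11.01%, against 25.2% and 23.7%), with a median of -0.04, so the share that fell lay near that of all genes. The split under TXX-1-10 was 64 lower and 22 higher with TMM and 55 and 23 with the summed counts. In the direct comparison 72 were lower and 6 higher with edgeR, against 39.4% and 25.1% of all genes, and 59 and 14 with DESeq2. Differences between the lists were not tested. The U4/U6.U5 tri-snRNP list had 12 of 15 lower and 1 higher, the U2AF and branch point list 7 of 8 lower and the snRNP assembly list 5 of 5 lower. The LSM list had 4 of 6 lower and 1 higher, and the list of further splicing regulators 26 of 36 lower and 2 higher. The Prp19 complex list had 3 of 10 lower and 3 higher (30% and 30%). The list of helicases and step factors had 3 of 8 lower and 1 higher (37.5% and 12.5%). The exon junction and nonsense-mediated decay list had 6 of 13 lower and 3 higher (46.2% and 23.1%). Over all genes tested these shares were 43.8% and 30.5%, and lists of so few genes do not show whether they differ from them.

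RBMX, the X-linked hnRNP G that works with TRA2 proteins, was at 37.05, 35.8 and 33.6 in vehicle-treated cells, 25.6, 24.9 and 24.3 with rimonabant and 11.4, 11.8 and 13.3 with TXX-1-10. Its groups were separate, and its fall (-1.54 on the log2 scale, edgeR adjusted p = 1.28e-08) was past that of SRSF7 in size. PSPC1, a paraspeckle protein, was at 22.5, 22.01 and 21.6 in vehicle-treated cells, 13.9, 13.4 and 13.8 with rimonabant and 8.18, 8.21 and 8.51 with TXX-1-10 and fell by 1.41 under TXX-1-10 and by 0.69 under rimonabant on the log2 scale. The U2-associated helicase DDX46 fell by 0.90, U2SURP by 0.82, GEMIN4 of the SMN complex, which loads the Sm ring on the small nuclear RNAs, by 0.95, the tri-snRNP protein PRPF4 by 0.73 and the SR protein kinase SRPK1 by 0.51 under TXX-1-10. PNN, a partner of SR proteins at the exon junction, fell by 0.92. The step factor SLU7, which acts in the choice of the 3′ splice site at the second step, was at 13.8, 14.1 and 12.5 in vehicle-treated cells, 16.04, 17.5 and 16.9 with rimonabant and 22.5, 20.7 and 22.9 with TXX-1-10. Every TXX-1-10 library was above every other library, and SLU7 rose by 0.71 (edgeR adjusted p = 3e-06), the largest rise of the 109 genes under TXX-1-10. UPF2, a factor of nonsense-mediated decay, rose by 0.44, as did UPF3A by 0.50. In the same list UPF1 (-0.18) and SMG9 (-0.14) were lower, and 6 genes fell where 3 rose.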

How the data were processed

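RNA-seq was analysed from 9 libraries of MDA-MB-231 cells, 3 per treatment, grouped by the treatment label (vehicle, rimonabant, TXX-1-10). For each gene and library the authors deposited a whole-number count, which is not normalized, and an FPKM value, which is that count scaled by the gene's length and a total for the library. Per the labels' processing notes, HISAT2 2.0.5 and featureCounts 1.5.0-p3 were used. Their order and settings, and whether counting used strand, are not given in the sources used here. The coordinates of all 27615 listed genes are those of GENCODE 29 (GRCh38).

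This total was worked out from those columns and served as library size. It differs from the summed counts by an amount that differs between the treatments, and what it counts is not given in the sources used here. Of the genes listed for all 9 libraries, the 4236 whose mean FPKM was 1 or more were tested with edgeR 4.0.16 in R 4.3.3 (estimateDisp, glmQLFit and glmQLFTest, no block, common biological coefficient of variation 0.0696), with Benjamini-Hochberg adjustment within each comparison. Lists run from high to low counts, so splicing factors with few reads are not analysed here, nor is SNRPN. The standard error is the log2 fold change divided by the square root of F and is approximate. The fit was tested on simulated data. Replicate numbers do not pair the libraries by the labels.

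The members and lists were chosen with earlier results of these data known, and genes named outside the naming rule (3 largest changes per family and comparison, changes of at least 2-fold, the 2 highest and lowest levels per family and 8 fixed genes, and in each other list the 2 largest changes against vehicle) were chosen after their values were seen. Alternatives were TMM and DESeq2 size factors, DESeq2 1.42.0, limma 3.58.1 on log2(FPKM + 1) and log2(FPKM + 0.1), other filters, fits of the compared groups only, genes listed for 8 libraries, each library left out, a lowess correction (span 0.3) for gene length, the replicate block and both together, and the summed counts of the genes in all 9 lists as library size. Promoters came from RefSeq (GRCh38.p14). Python 3.11.15 (pandas 2.3.3, matplotlib 3.10.9) made the tables and plots.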

Additional observations from a re-analysis of the deposited data

How the results depend on the processing

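Of 108 values of single genes, 77 kept their direction and their side of the threshold in all 24 alternatives and 14 changed sign in at least 1. The number of splicing factor genes that fell was 37 to 40 under TXX-1-10, 17 to 25 under rimonabant and 34 to 40 in the direct comparison with 1 library left out, and 33 under rimonabant without both libraries that stood apart (chosen after the data were seen). Leaving out 1 library gave 1 higher under TXX-1-10, 0 to 3 under rimonabant and 0 to 1 in the direct comparison. Of the 39 genes that fell under TXX-1-10, 36 kept the call in all alternatives (not HNRNPLL, SF3A2 and SNRPB), as did 15 of 20 under rimonabant and 33 of 38 in the direct comparison. The share of all genes tested that kept their calls was not counted. Counts in this section given without a share over all genes describe the members only, and do not set them apart from other genes. Of the 6 genes missing from a list, the 3 listed for 8 libraries were tested without rimonabant replicate 1, whose list is the shortest at 4237 genes.

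The number higher under TXX-1-10 was 3 with TMM or DESeq2 size factors, 5 with DESeq2, 2 with genes listed for 8 libraries and 4 after the length correction, with or without the block. Under rimonabant it was 1 with the replicate block, 1 with 8 libraries and 5 after the length correction. In the direct comparison it was 2 with TMM, DESeq2 size factors, DESeq2 or 8 libraries, 0 with only the compared groups or with the block, and 3 after the length correction with or without the block. Genes past 2-fold under TXX-1-10 were 4, and in the direct comparison 1, with TMM, DESeq2 size factors, DESeq2 or the length correction, with or without the block. The median of the 49 genes under TXX-1-10 was -0.512 with TMM and -0.51 with DESeq2 size factors and DESeq2, and the direct median -0.406 with each. With the summed counts of genes in all 9 lists as library size (chosen after the data were seen) 6 were higher under TXX-1-10 and 2 in the direct comparison, 3 and 1 passed 2-fold, and the medians were -0.439 and -0.393. The causes were not tested.

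With the replicate number as a block 39, 20 and 37 genes fell in the 3 comparisons. The labels give the groups the same numbers, but same-numbered libraries had correlations of -0.79 to 0.83, and 0 libraries correlated best with their own number, so no pairing is shown.

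Signs turned for genes near 0. Under TXX-1-10, SF3B1 was 0.033 with TMM and 0.034 with DESeq2 or its size factors, and 0.0014 or 0.0018 after the length correction without or with the block. SF3B2 was 0.097, 0.098 and 0.098 with these scalings, 0.075 and 0.072 after the correction and from -0.043 to 0.029 with 1 library left out. SRSF4 was 0.019, 0.021 and 0.021 with the scalings and SNRPB2 0.034 and 0.035 after the correction. Under rimonabant, SRSF3 was 0.00034 and 0.00032 with DESeq2 size factors and DESeq2, 0.010 and 0.0090 after the correction and from -0.055 to 0.024 with 1 library left out. SNRPB was -0.080 with 8 libraries or without both libraries that stood apart, and from -0.080 to 0.081 with 1 left out. In the direct comparison HNRNPC was 0.0059, 0.0063 and 0.0064 and HNRNPK 0.029, 0.030 and 0.030 with the scalings, and HNRNPK was 0.027 and 0.027 after the correction. SF3B1 was 0.072, 0.073 and 0.073 with the scalings, 0.0094 and 0.0094 after the correction and from -0.037 to 0.0089 with 1 left out. SRSF11 was -0.024 with 8 libraries, -0.032 without both libraries and from -0.024 to 0.046 with 1 left out. With the summed counts, SF3A1 was 0.035, SF3B1 0.11, SF3B2 0.17, SRSF4 0.092 and SNRPB2 0.062 under TXX-1-10, SRSF3 0.059, HNRNPA1 8.15e-05 and SF3B1 0.020 under rimonabant, and HNRNPC 0.019, HNRNPK 0.043, SF3B1 0.086 and SRSF5 0.0048 in the direct comparison.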

Other observations

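GENCODE 29 lists at least 1 transcript of the nonsense-mediated decay class for all 10 SRSF genes tested, 13 of 19 HNRNP genes, 4 of 11 SNRP genes and 3 of 9 SF3 genes. Over the 49 genes the share was 61.2%, against 46.9% of the 4192 protein-coding genes tested. For SRSF3, SRSF4, SRSF6, SRSF7, SRSF9, SRSF10 and SRSF11 some of these transcripts carry an internal exon that overlaps no exon of a protein-coding transcript. In SRSF3 the longer of these is the 456 bases at chromosome 6, 36599821 to 36600276, and in SRSF7 the 449 bases at chromosome 2, 38748898 to 38749346 (GRCh38). The deposited values are sums over a gene, so inclusion of these exons under either compound was not measured here.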
